A study of Mus musculus with 24 samples.

Results

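The right ventricles of mice 3 months after surgery that overloads this chamber, by pressure as well as volume, were compared with those of sham-operated mice. The loaded group is titled PSPI, an abbreviation the labels do not spell out, and held 4 samples at month 3. The comparison group was all 10 sham samples, whose titles give no month, so time after surgery and loading cannot be told apart here. These 14 of the 24 samples of the series were chosen by their titles alone, and the other 10 are PSPI ventricles of month 1 and month 2, with 5 each. Every sample carries the strain label M/FVB/10-12 and the tissue label right ventricle, and no other allele or treatment is named. Total RNA was isolated with a QIAGEN RNeasy kit, and 0.5 ug of it was amplified, labelled with Cy3 and hybridised to 1-colour Agilent arrays. Nothing in the labels says whether the samples are separate mice, so the p-values measure the spread between samples, which may be technical.

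The right ventricle pumps blood into the low-pressure circulation of the lungs, and a sustained load makes its muscle cells grow and change the genes they use. Healthy heart muscle burns mainly fatty acids in its mitochondria, whose own ribosomes build a few subunits of the respiratory chain. Each beat begins with calcium entry and calcium release from the sarcoplasmic reticulum, and potassium currents end the electrical signal. Interferon response genes are a set of antiviral and antigen-presenting genes that cells switch on when interferon, or nucleic acid in the wrong compartment, is sensed.

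All levels are on a log2 scale relative to the 75th percentile of the probes measured on every array, so 1 unit is a 2-fold difference. A probe was used if 1 or more of the 4 groups had it well above background throughout, which left 12328 genes. Between 36.1% and 56.1% of probes were well above background per array, and the highest share was that of month 3 sample 4, against 41.7%, 38.6% and 36.2% in samples 1 to 3. Samples 2 to 4 of month 3 shared slide 3 with Sham 5, 9 and 10, while sample 1 lay on slide 2, which held no sham. Month 3 samples 2 and 3 were nearly alike, as were Sham 3, 4 and 10, Sham 1 and 5, and Sham 7 and 9, so the main counts are also given with such close arrays averaged into 1 sample (6 sham and 3 month 3 samples). All 12 ventricular muscle markers on the array were measured. Atrial markers were unequal among the shams: their median difference from the sham mean ran from -1.04 to 2.05 in the shams, highest in Sham 3, 4 and 10, and from -1.32 to -1.10 at month 3. None of 12 lung epithelium markers was measured.

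Of 12328 genes, 4807 (39.0%) differed between month 3 and sham at an adjusted p below 0.05 in limma, with 2114 higher (17.1%) and 2693 lower (21.8%). At least 2-fold, 603 were higher (4.89%) and 197 lower (1.60%). With close arrays averaged, 2688 genes passed (21.8%), 10.3% of all genes higher and 11.6% lower, and 2675 of the 2688 were among the 4807. Within slide 3 alone 1598 passed. The list counts below are set beside these shares of all genes. All 4 month 3 samples lay above every sham for 705 genes (5.72%) and below every sham for 824 (6.68%). The share of called genes that were higher, 44.0%, moved with the scaling: it was 22.3% with the percentile taken over all probes, 29.7% after quantile normalization, 58.4% with dim probes kept, 63.1% after normexp background correction and 65.4% in the deposited value table. The median over all genes was -0.04 here and -0.20, -0.13, 0.27, 0.09 and 0.10 in those settings in the same order.

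**Figure D1:**
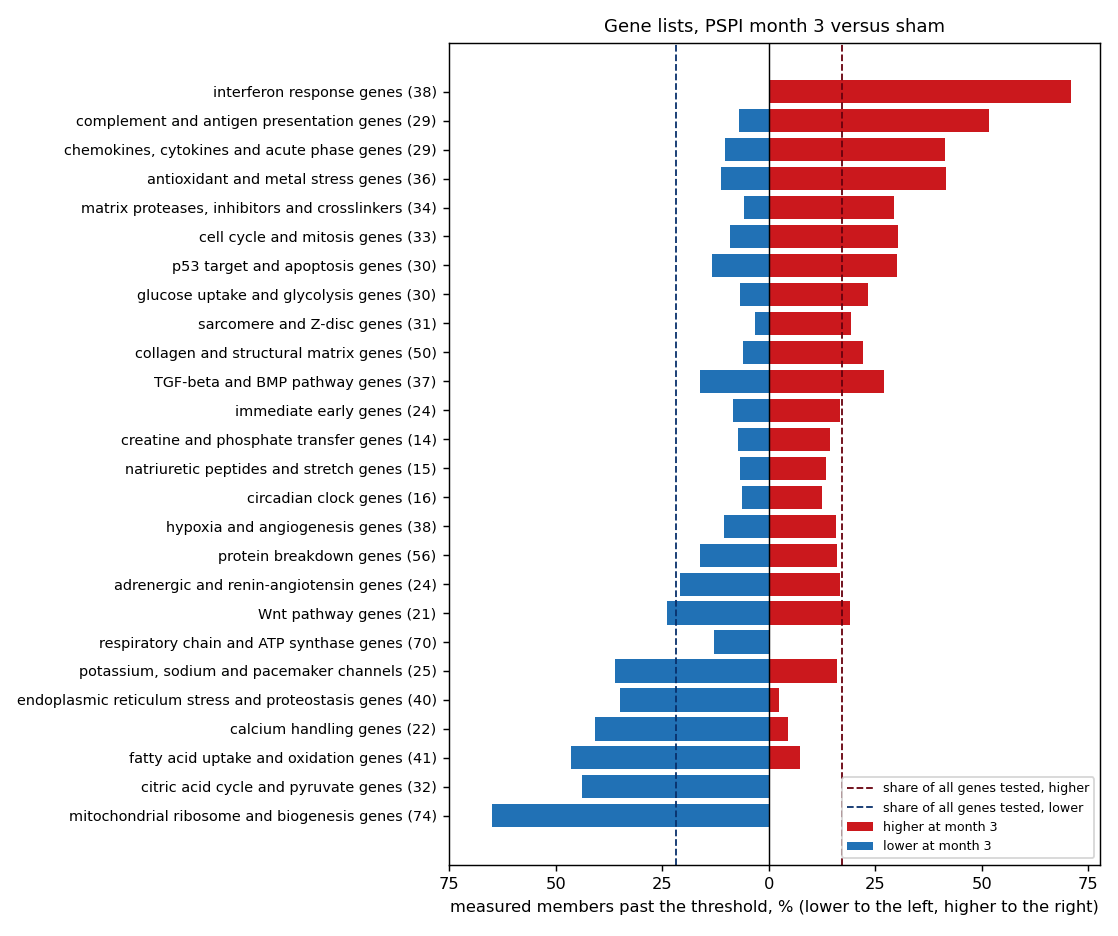
Share of measured members of each gene list that was higher or lower at month 3 than in sham (percent, limma adjusted p below 0.05), with the share over all 12328 genes drawn as lines at 17.1% higher and 21.8% lower. Interferon response genes stood at 71.1% higher and mitochondrial ribosome and biogenesis genes at 64.9% lower.

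Interferon response genes were higher at month 3. Of 38 measured members, 27 rose and 0 fell (71.1%, against 17.1% of all genes), with a median log2 difference of 0.64 against -0.04 over all genes. The median difference of the members from the sham mean was 0.53, 0.56, 0.53 and 1.16 in month 3 samples 1 to 4 and -0.27 to 0.24 in the shams, so every month 3 sample lay above every sham. With close arrays averaged 22 members rose (10.3% of all genes did), and within slide 3, where samples are few, 13 rose and the median was 0.80. The median was 0.48, 0.48 and 0.63 under all-probe, quantile and normexp scaling. A member dim in sham could enter through a PSPI group alone, and no share over members measured in every sham is given.

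The response rests on a short promoter element read by interferon regulatory factors, and 3 promoters with matches to it are shown as examples of members that hold it. Each line is the 250 bases before the RefSeq start of the gene on GRCm38.p6, in the direction of transcription, with each match to GAAA, any 2 bases and GAAA again, on either strand, in capitals. Ifit1 lies at chr19:34640639-34640888 on the plus strand, Ifit3 at chr19:34583279-34583528 on the plus strand, and Isg15 at chr4:156200819-156201068 on the minus strand. Isg15, a ubiquitin-like protein that is joined to other proteins, is outside the rule for named genes and was chosen after its value was seen (log2 difference 1.28 ± 0.24, SE, adjusted p = 0.000257).
Ifit1: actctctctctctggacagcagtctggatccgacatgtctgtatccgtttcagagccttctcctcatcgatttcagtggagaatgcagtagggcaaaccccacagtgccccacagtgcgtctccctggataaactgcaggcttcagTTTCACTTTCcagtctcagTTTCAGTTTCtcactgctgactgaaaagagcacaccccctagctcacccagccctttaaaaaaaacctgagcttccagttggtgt
Ifit3: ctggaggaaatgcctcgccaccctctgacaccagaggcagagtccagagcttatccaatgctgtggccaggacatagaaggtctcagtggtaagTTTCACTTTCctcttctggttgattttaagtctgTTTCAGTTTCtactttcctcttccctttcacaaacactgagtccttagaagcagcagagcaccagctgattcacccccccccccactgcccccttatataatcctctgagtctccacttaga
Isg15: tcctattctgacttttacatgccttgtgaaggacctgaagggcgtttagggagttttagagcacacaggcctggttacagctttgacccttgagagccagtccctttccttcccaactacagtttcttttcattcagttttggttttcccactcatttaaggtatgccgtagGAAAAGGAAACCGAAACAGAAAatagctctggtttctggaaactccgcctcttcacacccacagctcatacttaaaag

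Ifit1 holds 2 matches, 104 to 95 and 85 to 76 bases before the start, Ifit3 holds 2 at 156 to 147 and 122 to 113 bases, and Isg15 holds 3 that overlap between 78 and 57 bases. In a window of 250 bases before and 50 after the start, 3.44% of the 32851 RefSeq promoters, and 3.99% of the 27025 genes they belong to, hold a match on either strand. Of 31 interferon response genes with a promoter in that table, 19 hold one (61.3%). The share was 14 of 22 (63.6%) among members that rose and 5 of 9 (55.6%) among those that did not pass. A match describes these letters and does not show that a factor binds there.

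Ifit1 encodes a protein that binds foreign RNA. Its probe lies on chromosome 19 at 34723796 to 34723855 (mm9, exon or UTR not assigned). Its level was -3.67, -3.32, -3.54 and -2.68 in month 3 samples 1 to 4, and the shams ran from -6.35 through a median of -5.66 to -5.19. No month 3 sample overlapped the shams, and the log2 difference was 2.42 ± 0.23 (SE, n = 4 and 10), a 5.35-fold rise (adjusted p = 1.07e-07). The probe was well above background in 7 of 10 shams. It also exceeded month 2 by 1.71 (adjusted p = 0.000114).

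Zbp1, a sensor of left-handed nucleic acid that can trigger cell death, was higher at month 3 as well. It stood at -5.50, -4.54, -3.93 and -4.71 at month 3 against -7.82, -6.68 and -5.97 as the lowest, median and highest sham, of which 1 was well above background. The log2 difference was 2.10 ± 0.26 (adjusted p = 2.92e-06). Ifit3, which stabilises Ifit1 complexes, read -2.59, -2.53, -2.52 and -1.58 against a sham range of -4.41 to -3.50 with a median of -3.86. Sample 4 was the highest, all 4 samples were above every sham, and Ifit3 rose by 1.61 ± 0.22 (adjusted p = 1.01e-05). Ifitm3, a membrane protein that blocks virus entry and is abundant in this tissue, stood at 1.00, 0.84, 0.85 and 1.49 against 0.13 to 0.58 in sham, a rise of 0.79 ± 0.11 (adjusted p = 1.13e-05).

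Genes of complement and antigen presentation were higher too. Of 29 measured complement and antigen presentation genes 15 rose and 2 fell (51.7% and 6.9%), with close arrays averaged 11 rose and 0 fell, and the median was 0.41. B2m, the constant light chain of class I molecules, stood at 2.38, 2.62, 2.65 and 2.37 at month 3 and between 1.35 and 2.02 (median 1.55) in sham. The groups did not overlap, and the difference was 0.90 ± 0.11 (adjusted p = 4.77e-06). Psmb8, an immunoproteasome subunit, rose by 0.82 ± 0.16 (adjusted p = 0.000352), from a sham range of -2.69 to -1.98 to -1.92, -0.99, -1.32 and -1.25. Nlrc5, the transactivator of class I genes, stood at -4.57, -3.22, -3.29 and -3.83 against -7.45 to -4.95 in sham, where 7 of 10 arrays were well above background, and rose by 2.14 ± 0.42 (adjusted p = 0.000474). Against month 2 these 3 genes were higher by 0.46, 0.58 and 1.56 (adjusted p = 0.017, 0.0233 and 0.0242).

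**Figure D2:**
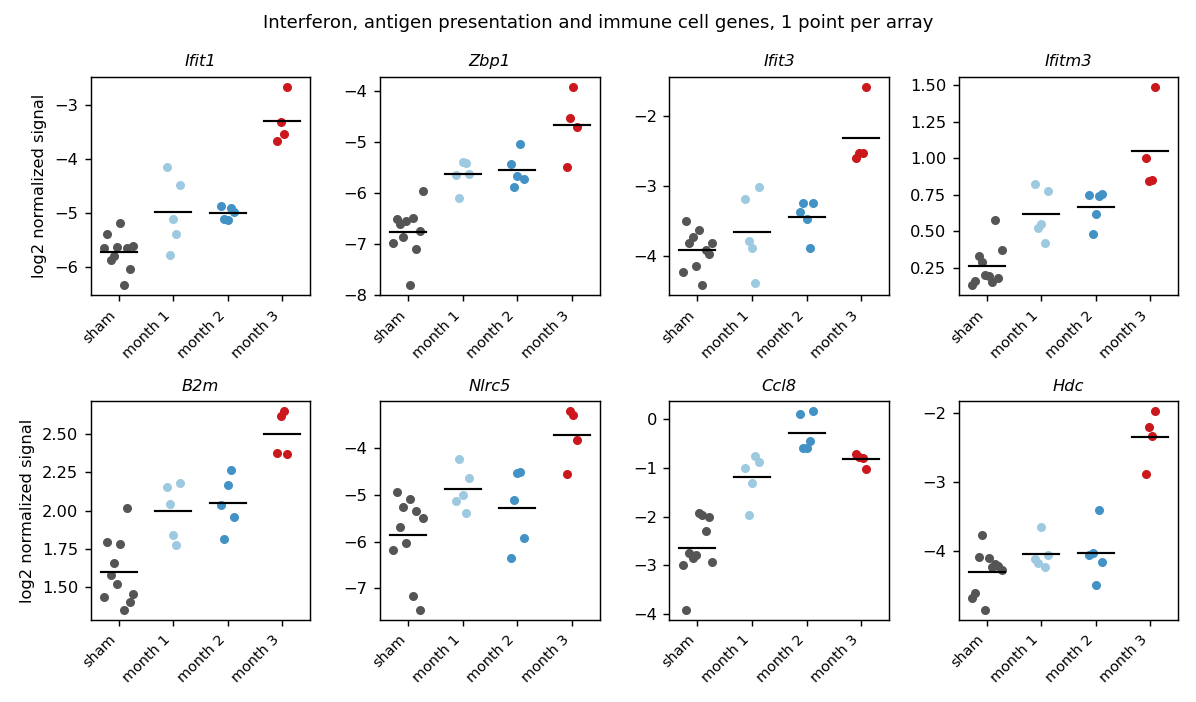
Log2 level of 8 immune genes in every sample of sham, month 1, month 2 and month 3, with a bar at each group mean. For Ifit1, Zbp1, Ifit3, Ifitm3, B2m, Nlrc5, Ccl8 and Hdc all 4 month 3 samples lie above every sham, and Ccl8 alone of these 8 does not exceed month 2 in the test (log2 difference -0.56, adjusted p = 0.24).

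Chemokines and markers of several immune cells were higher as well. In bulk tissue, more cells of a type and more RNA per cell cannot be told apart. Of 29 chemokine, cytokine and acute phase genes 12 rose and 3 fell (41.4% and 10.3%), 8 and 2 with close arrays averaged, and 8 rose without month 3 sample 3. Ccl8, a chemokine that draws monocytes, stood at -0.72, -0.77, -0.80 and -1.01 against -3.92 to -1.92 in sham and rose by 1.82 ± 0.28 (adjusted p = 4.45e-05). Cx3cl1, a membrane-bound chemokine, rose by 0.96 ± 0.20 (adjusted p = 0.000897), though within slide 3 it was 0.87 with adjusted p = 0.0837. Ccl11, an eosinophil chemokine, went the other way: it was -7.98, -6.30, -7.22 and -6.42 at month 3, with 1 sample well above background, against -6.0 to -2.91 in sham. It fell by 2.82 ± 0.71 on the log2 scale (adjusted p = 0.00379), a call that was lost within slide 3 and after normexp correction.

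Of 13 neutrophil markers 5 were measured, and 4 of these rose, against 17.1% of all genes, 3 with close arrays averaged. The other markers passed the filter in no group, and a marker dim in sham could enter through a PSPI group alone. S100a8, a subunit of the calprotectin complex of neutrophils, stood at -2.98, -2.84, -2.86 and -5.04 against -7.92 to -5.47 in sham, 5 of 10 of which were well above background. Sample 4 was far below the other 3 but above every sham, and the rise was 2.86 ± 0.47 (adjusted p = 8.91e-05). Its partner S100a9 repeated this, with -0.93, -0.73, -0.71 and -2.95 against -7.97 to -2.56, a rise of 2.69 ± 0.71 (adjusted p = 0.005), with sample 4 inside the sham range, and the call was lost within slide 3 (adjusted p = 0.127). Csf3r, the receptor for the neutrophil growth factor, rose by 1.30 ± 0.20 (adjusted p = 4.97e-05) and was 1.30 above month 2 (adjusted p = 0.000434), while S100a8 and S100a9 differed from month 2 by -0.02 and -0.21 (adjusted p = 0.983 and 0.89).

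Hdc, which makes histamine, stood at -2.89, -2.21, -2.33 and -1.98 at month 3 and between -4.85 and -3.78 in sham. The groups were well apart, with a rise of 1.95 ± 0.19 (adjusted p = 1.23e-07). Tpsb2, a mast cell tryptase, rose by 1.00 ± 0.15 (adjusted p = 2.59e-05), and both exceeded month 2, by 1.68 and 1.56 (adjusted p = 1.16e-05 and 8.61e-07). The other 2 of the 4 measured mast cell markers did not pass. Of 20 macrophage and monocyte markers 7 rose and 0 fell (35.0%), 6 and 0 with close arrays averaged. The median difference of these 20 from the sham mean was 0.50, 0.27, 0.24 and 0.36 in month 3 samples 1 to 4. Samples 2 and 3 lay inside the sham range of -0.32 to 0.35. Those that rose include Cd14, the co-receptor for bacterial lipid (0.84 ± 0.18, adjusted p = 0.000908), and C1qc, a complement chain made by macrophages (0.49 ± 0.13, adjusted p = 0.0046, lost within slide 3). Itgam, an integrin of myeloid cells, rose by 1.80 ± 0.22 (adjusted p = 2.89e-06), but its second probe, 1.02 higher, did not pass. Perforin, Prf1, of killer lymphocytes rose by 1.33 ± 0.24 (adjusted p = 0.000222) and was 1.47 above month 2 (adjusted p = 0.000692).

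Nuclear genes of the mitochondrial ribosome and mitochondrial DNA upkeep were lower at month 3. Of 74 measured members 48 fell and 0 rose (64.9%, against 21.8% of all genes), with a median of -0.33. With close arrays averaged 34 fell (11.6% of all genes did), and within slide 3 the median was -0.36 and 12 passed. The members' median difference from the sham mean was -0.22, -0.30, -0.25 and -0.46 in samples 1 to 4 and -0.10 to 0.13 in the shams, again with no overlap. The median was -0.49, -0.36 and -0.29 under all-probe, quantile and normexp scaling. Without month 3 sample 4, which had the most probes above background, 34 members fell.

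Tfam packs and transcribes mitochondrial DNA. Its level was -0.93, -1.69, -1.60 and -1.79 at month 3, against -0.79, -0.67 and -0.53 as lowest, median and highest sham (probe on chromosome 10, 70691103 to 70691162, mm9). Sample 1 lay closest to the shams and still below all of them, and Tfam fell by 0.84 ± 0.10 on the log2 scale (adjusted p = 3.11e-06). Its other 2 probes also fell, by 1.18 and 0.98. Mrps17, a small-subunit protein, stood at 0.37, 0.22, 0.14 and -0.03 against 0.67 to 0.89, a difference of -0.59 ± 0.07 (adjusted p = 1.87e-06) that its second probe repeated at -0.43. Mrps30 differed by -0.52 ± 0.07 (adjusted p = 2.07e-05). Tfam, Mrps17 and Mrps30 were also lower than at month 2, by -0.80, -0.48 and -0.27 (adjusted p = 5.4e-05, 0.000243 and 0.0283).

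Many promoters of nuclear genes for mitochondria carry a palindrome bound by the factor NRF1, and 1 with the exact core GCGCA, any base, GCGC is shown as the example of this group. It is that of Mrpl44, a large-subunit protein chosen after its value was seen (-0.50 ± 0.10, adjusted p = 0.00045), at chr1:79775768-79776017 on the plus strand of GRCm38.p6, from RefSeq. The capitals mark the match, 35 to 26 bases before the start.
Mrpl44: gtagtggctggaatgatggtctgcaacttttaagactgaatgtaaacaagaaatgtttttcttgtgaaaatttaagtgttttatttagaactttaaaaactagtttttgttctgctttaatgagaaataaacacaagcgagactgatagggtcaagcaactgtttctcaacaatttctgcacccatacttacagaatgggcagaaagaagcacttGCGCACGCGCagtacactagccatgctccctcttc

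The core was present in 12 of 65 matched members (18.5%), in 9 of 43 that fell (20.9%) and in 3 of 22 that did not pass (13.6%), against 5.19% of the 27025 genes of the RefSeq table.

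Fuel genes were lower too. Of 41 fatty acid uptake and oxidation genes 19 fell and 3 rose (46.3% and 7.3%), the median was -0.49, and 14 fell with close arrays averaged. Here the groups overlapped: the members' median difference was -0.49, -0.29, -0.20 and -0.74 at month 3, and samples 2 and 3 lay inside the sham range of -0.35 to 0.33. Slc25a20, which carries acylcarnitine into mitochondria, stood at -1.74, -2.27, -2.19 and -2.95 against -1.50 to -1.03 (median -1.13) in sham. It lay below every sham in all 4 samples, with a difference of -1.10 ± 0.16 (adjusted p = 3.35e-05), and 1.03 below month 2 (adjusted p = 0.000567). Etfdh, which hands electrons of this pathway on to ubiquinone, differed by -0.82 ± 0.13 (adjusted p = 8.91e-05). Eci2 and Acadl, enzymes of the oxidation cycle, differed by -0.72 ± 0.15 and -0.57 ± 0.12 (adjusted p = 0.000747 and 0.0011), and the call for Acadl was lost within slide 3 (adjusted p = 0.051).

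Of 32 citric acid cycle and pyruvate genes 14 fell and 0 rose (43.8%), and 13 fell with close arrays averaged. The groups overlapped here too: the members' median difference was -0.36, -0.06, -0.11 and -0.62 at month 3. Samples 2 and 3 lay inside the sham range of -0.18 to 0.28. Suclg2, a subunit of succinate-CoA ligase, read -1.23, -1.82, -1.69 and -2.07 at month 3 and -0.89 to -0.29 (median -0.63) in sham (probe on chromosome 6, 95424712 to 95424771, mm9). The difference was -1.09 ± 0.14 (adjusted p = 6.5e-06), and -0.99 against month 2 (adjusted p = 0.000222). Subunits of the pyruvate dehydrogenase complex fell: Pdha1 by 0.75 ± 0.14, Dld by 0.64 ± 0.12 and Dlat by 0.51 ± 0.11 on the log2 scale (adjusted p = 0.000234, 0.000342 and 0.000736). For Pdha1 the values were 1.41, 1.14, 1.05 and 0.37 against 1.5 to 2.18, so sample 1 lay just below the lowest sham. The calls for Dld and Dlat were lost within slide 3.

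Of 70 measured subunits of the respiratory chain and ATP synthase, 9 fell and 0 rose (12.9%, below the 21.8% of all genes), and the median was -0.07, and 0.04 within slide 3. This depended on the scaling: after quantile normalization 45 of the 70 fell, against 31.2% of all genes, and the median was -0.27. The members' median difference was -0.39, 0.26, 0.18 and -0.30 in samples 1 to 4, inside the sham range of -0.33 to 0.44 in 3 of them. The 2 with the smallest p both belong to complex I: Ndufab1, the acyl carrier protein, differed by -0.67 ± 0.10 (adjusted p = 3.23e-05) and Ndufs8 by -0.67 ± 0.10 (adjusted p = 5.12e-05), the latter lost within slide 3.

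Of 30 genes of glucose uptake and glycolysis 7 rose and 2 fell (23.3% and 6.7%, against 17.1% and 21.8% of all genes), and 4 and 1 with close arrays averaged. Aldoc, an aldolase of brain, rose by 1.29 ± 0.25 (adjusted p = 0.000402) and Slc16a3, a lactate exporter, by 1.23 ± 0.32 (adjusted p = 0.00415), the latter lost within slide 3. Fbp2, the muscle enzyme that opposes glycolysis, stood at -5.47, -5.12, -5.11 and -6.0 against -5.06 to -2.62 in sham. It fell by 1.98 ± 0.51 on the log2 scale (adjusted p = 0.00462), but was well above background in 2 of 4 month 3 samples, and the call was lost after normexp correction.

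**Figure D3:**
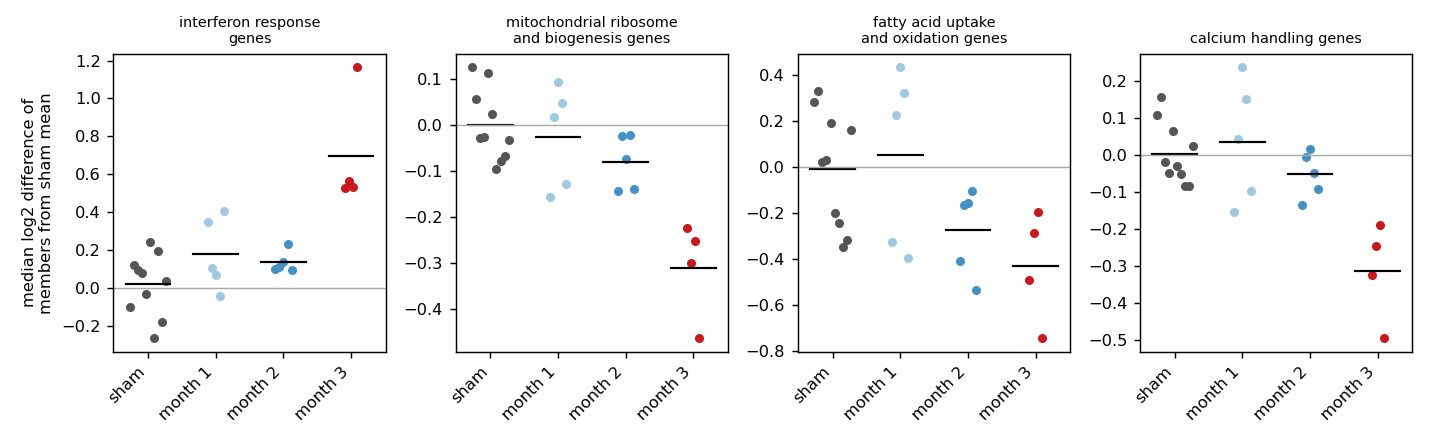
Median log2 difference of the measured members of 4 gene lists from their sham means, for every sample of sham, month 1, month 2 and month 3, with a bar at each group mean. Month 3 samples lie above every sham for interferon response genes, below every sham for mitochondrial ribosome and calcium handling genes, and partly inside the sham range for fatty acid genes.

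Calcium handling genes were lower. Of 22 measured 9 fell and 1 rose (40.9% and 4.5%), 7 fell with close arrays averaged, and the median was -0.26. The members' median difference was -0.32, -0.24, -0.19 and -0.49 at month 3 and -0.08 to 0.16 in the shams. Pln, the brake on the sarcoplasmic reticulum calcium pump, stood at 3.31, 2.47, 2.72 and 1.99, against 3.34, 3.56 and 3.88 as lowest, median and highest sham (probe on chromosome 10, 53064944 to 53065003, mm9). Sample 1 was just below the lowest sham, and Pln fell by 0.91 ± 0.17 on the log2 scale (adjusted p = 0.000293) and was 0.89 below month 2 (adjusted p = 0.00262). The pump itself, Atp2a2, outside the rule for named genes and chosen after its value was seen, differed by -0.17 ± 0.19 and did not pass (adjusted p = 0.494).

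Cacna1g, a T-type calcium channel, stood at -5.36, -4.99, -5.04 and -4.0 against -4.09 to -2.30, and sample 4 reached the sham range. It fell by 1.89 ± 0.34 on the log2 scale (adjusted p = 0.000219), and its second probe fell by 1.83. Trdn, which anchors the release channel, differed by -1.18 ± 0.19 (adjusted p = 9.09e-05), yet its other 2 probes read -0.22 and 0.04 and did not pass, so the difference belongs to 1 probe. Ryr2, the release channel, differed by -0.78 ± 0.17 (adjusted p = 0.00137), with 1 month 3 sample below every sham, and the call was lost within slide 3 (adjusted p = 0.153).

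Of 25 potassium, sodium and pacemaker channel genes 9 fell and 4 rose (36.0% and 16.0%, against 21.8% and 17.1% of all genes). The members' median difference was -0.278, -0.250, -0.245 and -0.448 at month 3 and -0.241 to 0.244 in the shams. Samples 1 to 3 thus lay just below the lowest sham, and Sham 6 to 9 stood at -0.213, -0.241, -0.183 and -0.139. With close arrays averaged 4 fell and 0 rose, and without month 3 sample 4 also 4 fell. Kcnd2, a subunit of the fast transient outward current, stood at -1.88, -2.25, -1.99 and -2.82 against -1.26, -0.71 and -0.01 as lowest, median and highest sham. No sample overlapped, and the difference was -1.55 ± 0.25 (adjusted p = 8.88e-05). Kcnj5, of the acetylcholine-gated current, was -1.25, -1.35, -1.19 and -1.30 against -0.66 to 0.89, a difference of -1.44 ± 0.25 (adjusted p = 0.000163). Kcnj5 is also an atrial marker, and without Sham 3, 4 and 10 it was -1.15 (adjusted p = 0.000492). Kcnv2, a silent channel subunit, differed by -1.77 ± 0.43 (adjusted p = 0.00291).

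Adrb1, the main adrenaline receptor of heart muscle, stood at -2.39, -3.46, -3.31 and -2.58 at month 3 and between -2.21 and -0.99 (median -1.57) in sham. All 4 samples were below every sham, and the difference was -1.25 ± 0.20 (adjusted p = 7.35e-05). Akap5, which tethers protein kinase A near that receptor, differed by -2.17 ± 0.42 (adjusted p = 0.000402), with 1 of 4 month 3 samples well above background, and the call was lost after normexp correction and within slide 3. Ace, which makes angiotensin II, rose by 1.11 ± 0.15 (adjusted p = 8.58e-06), from -3.64 to -2.82 in sham to -2.52, -2.12, -1.99 and -1.61. The list these 3 belong to had 4 of 24 higher and 5 lower (16.7% and 20.8%, near the 17.1% and 21.8% of all genes), 2 and 5 with close arrays averaged.

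**Figure D4:**
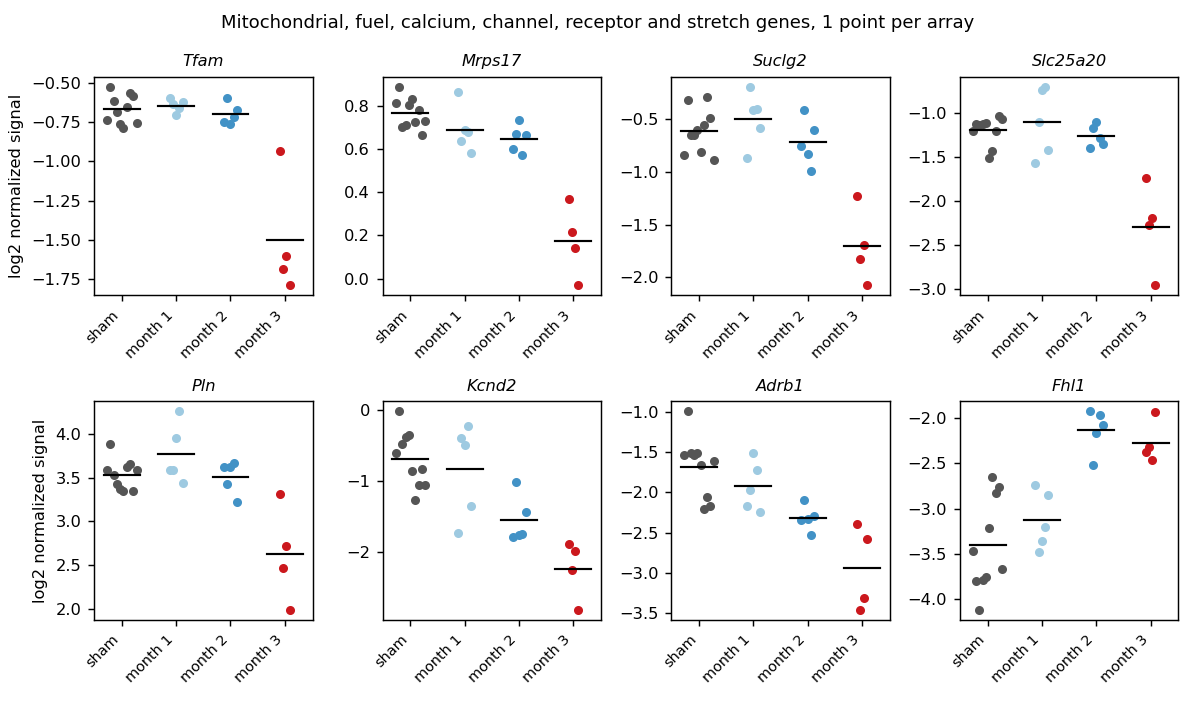
Log2 level of 8 genes of mitochondria, calcium, channels, adrenaline signalling and stretch in every sample, with a bar at each group mean. For Tfam, Mrps17, Suclg2, Slc25a20, Pln, Kcnd2 and Adrb1 all 4 month 3 samples lie below every sham, and for Fhl1 above every sham.

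Protein-folding genes were lower, as a set mainly in month 3 samples 2 and 3. Of 40 endoplasmic reticulum stress and proteostasis genes 14 fell and 1 rose (35.0% and 2.5%). The members' median difference was -0.04, -0.28, -0.25 and -0.07 in samples 1 to 4. Samples 1 and 4 lay inside the sham range of -0.12 to 0.10. With close arrays averaged 7 fell (11.6% of all genes did). Without month 3 sample 2, 8 fell (1884 of all 12328 genes did). Dnajb1, a co-chaperone, stood at 0.26, -0.28, -0.11 and 0.35 against 0.91 to 1.67 in sham and differed by -1.24 ± 0.20 (adjusted p = 6.3e-05). Dnaja1, of the same family, differed by -0.90 ± 0.16 (adjusted p = 0.000184). Hspd1 and Hspe1 are the paired chaperonins of the mitochondrial matrix and lie side by side in the genome: they differed by -0.65 ± 0.13 and -0.71 ± 0.08 (adjusted p = 0.000467 and 7.61e-07). Of the other 2 probes of Hspe1, 1 fell (-0.54) and the other was higher by 0.52.

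Among antioxidant and metal stress genes 15 of 36 rose and 4 fell (41.7% and 11.1%). With close arrays averaged 8 rose (10.3% of all genes did), and with all-probe scaling 8 rose (1298 of all 12328 genes did). Cat, catalase, stood at 0.28, 0.51, 0.91 and 0.94 against -0.73 to -0.23 in sham, a rise of 1.15 ± 0.13 (adjusted p = 9.56e-07), but its second probe read -0.39. Ncf1, a subunit of the phagocyte oxidase, rose by 1.01 ± 0.15 (adjusted p = 4.17e-05), and Txnrd1, a thioredoxin reductase, by 0.48 ± 0.09 (adjusted p = 0.000341). Prdx3, the peroxiredoxin of mitochondria, fell by 0.49 ± 0.08 on the log2 scale (adjusted p = 5.6e-05). The calls for Txnrd1 and Prdx3 were lost within slide 3.

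Cdkn1a, the p53-driven brake on the cell cycle, stood at -1.48, -0.42, -0.53 and -1.30 against -3.32 to -2.05 in sham. No sample overlapped, and it rose by 1.92 ± 0.28, a 3.78-fold difference (adjusted p = 2.18e-05). Its list, p53 target and apoptosis genes, had 9 of 30 higher and 4 lower (30.0% and 13.3%), 5 and 2 with close arrays averaged. Gadd45b of this list rose (0.86 ± 0.16, adjusted p = 0.000265), and Ccng1, a p53 target, went the other way (-0.62 ± 0.11, adjusted p = 0.000186). Of 33 cell cycle and mitosis genes 10 rose and 3 fell (30.3% and 9.1%), 6 and 1 with close arrays averaged, though 5 rose without month 3 sample 4. Hmmr, a spindle protein, stood at -3.04, -1.79, -2.16 and -1.85 against -4.24 to -3.56, and rose by 1.65 ± 0.17 (adjusted p = 2.57e-07), and it was 1.59 above month 2 (adjusted p = 4.55e-06). Dusp4, a phosphatase that ends MAP kinase signals, rose by 2.92 ± 0.42 (adjusted p = 2.08e-05), with 3 of 10 shams well above background, and the transcription factor Maff by 1.69 ± 0.35 (adjusted p = 0.000731).

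Matrix genes as a set were higher in some samples only. Of 50 collagen and structural matrix genes 11 rose and 3 fell (22.0% and 6.0%, against 17.1% and 21.8% of all genes). With close arrays averaged 4 rose (10.3% of all genes did), and 4 without month 3 sample 4. The members' median difference was 0.63, -0.11, -0.06 and 0.84 in samples 1 to 4, so samples 2 and 3 stood inside the sham range of -0.45 to 0.53 and samples 1 and 4 above it. Ventricular muscle markers split the samples the other way, at 1.01 and 0.95 in samples 2 and 3, above the highest sham at 0.60, and -0.19 and 0.13 in samples 1 and 4. Of those 12 markers 1 rose and 3 fell, 0 and 3 with close arrays averaged, and their part in the matrix values was not tested. Fbln2 and Ccn2 lay above every sham in all 4 samples. Fbln2, a fibulin that binds elastic fibres, stood at 1.84, 1.60, 1.78 and 2.09 against 0.24 to 0.92, a rise of 1.25 ± 0.17 (adjusted p = 9.53e-06). Ccn2, a matrix signal induced by TGF-beta, stood at 3.69, 3.87, 3.77 and 3.26 against 0.98 to 3.08 and rose by 1.56 ± 0.39 (adjusted p = 0.00349), a call lost within slide 3. The fibrillar collagens Col1a1 and Col3a1 did not pass (-0.08 ± 0.36 and -0.32 ± 0.36, adjusted p = 0.884 and 0.503). Col1a1 was 2.19, 0.38, 0.54 and 2.37, with samples 1 and 4 above and samples 2 and 3 below the sham range of 0.71 to 2.10.

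Postn, periostin of activated fibroblasts, stood at 0.26, -0.21, -0.45 and 0.73 against -3.76 to -0.09 in sham. It rose by 1.86 ± 0.63 (adjusted p = 0.0232), and neither with close arrays averaged (adjusted p = 0.0603) nor without month 3 sample 4 did it pass, nor within slide 3 or without Sham 3, 4 and 10. Of 34 matrix proteases, inhibitors and crosslinkers 10 rose and 2 fell (29.4% and 5.9%, against 17.1% and 21.8% of all genes). After averaging it was 4 and 1, and 5 rose without month 3 sample 4. Adamts15, a protease of proteoglycans, was -3.94, -4.25, -5.26 and -4.0 against -3.54 to -2.32 and fell by 1.49 ± 0.26 on the log2 scale (adjusted p = 0.00014). Serpine2, a protease inhibitor, rose by 0.66 ± 0.15 (adjusted p = 0.00159), lost within slide 3. Of 37 TGF-beta and BMP pathway genes 10 rose and 6 fell (27.0% and 16.2%), 9 and 1 with close arrays averaged. Without month 3 sample 2, 1 fell, and without sample 3, 3 fell. Those that rose include the endothelial co-receptor Eng (0.68 ± 0.15, adjusted p = 0.00114, lost within slide 3) and the inhibitor Smad6 (1.09 ± 0.24, adjusted p = 0.00141). Sfrp1, a secreted Wnt antagonist, stood at -3.16, -3.92, -4.05 and -3.46 against -5.07 to -4.51 and rose by 1.16 ± 0.16 (adjusted p = 9.52e-06).

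The classical load markers were split by the shams themselves. Myh7, the slow myosin that rises in loaded mouse ventricle, stood at 5.40, 5.09, 5.01 and 5.61 at month 3. Shams ran from 1.62 through a median of 2.12 to 5.91, with Sham 6 to 9 in the upper part, so no month 3 sample left the sham range. The difference of 2.06 ± 0.78 passed (adjusted p = 0.0415), did not with close arrays averaged (adjusted p = 0.135), and did not in 10 of 14 single-array omissions. Nppa and Nppb, the natriuretic peptides, differed by 1.56 ± 1.09 and 1.73 ± 0.88 and did not pass (adjusted p = 0.261 and 0.122). Nppa was 1.02 without Sham 2, and Nppb passed with slide as a fixed block (adjusted p = 0.0453) and with the replicate block (adjusted p = 0.0117). Myh6, the fast myosin, differed by 0.93 ± 0.39 (adjusted p = 0.0618). Acta1, the skeletal actin, was 3.17, 1.42, 1.62 and 2.72 against -0.04 to 4.41 and differed by 0.25 ± 0.83 (adjusted p = 0.831).

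Of 15 measured natriuretic peptide and stretch genes 2 rose and 1 fell (13.3% and 6.7%, against 17.1% and 21.8% of all genes). Fhl1, a stretch sensor of the sarcomere, stood at -2.38, -2.32, -2.47 and -1.93 against -4.12 to -2.65 and rose by 1.13 ± 0.22 (adjusted p = 0.000532). Fhl2, a relative of Fhl1 in heart muscle, differed from sham by -0.49 ± 0.18 (adjusted p = 0.0323), and 3 of 14 single-array omissions (Sham 2, and month 3 samples 1 and 4) ended that call. Uchl1, a ubiquitin hydrolase used here as a marker of Schwann cells and neurons, was -1.96, -3.02, -2.87 and -2.76 against -6.30 to -3.34. It rose by 2.47 ± 0.57 (adjusted p = 0.00183).

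Lining genes moved both ways. Msln, a surface protein of mesothelium, stood at -6.68, -7.45, -5.53 and -4.05 against -4.35, -1.35 and -0.03 as lowest, median and highest sham (probe on chromosome 17, 25885569 to 25885628, mm9). It was well above background in 1 of 4 month 3 samples and sample 4 reached the sham range. The fitted difference was -4.20 ± 0.86 (adjusted p = 0.000737), whose size is uncertain with 3 month 3 samples near background, and the call was lost within slide 3 (adjusted p = 0.053). Muc16 and Aldh1a2, of the same lining, differed by -3.19 ± 0.94 and -1.55 ± 0.41 (adjusted p = 0.0109 and 0.00485), but Muc16 did not pass with close arrays averaged (adjusted p = 0.0953), within slide 3 or without Sham 3, 4 and 10, and neither passed after normexp correction or in the deposited table. Prg4, a lubricant of serous surfaces, rose by 2.31 ± 0.60 (adjusted p = 0.00447), lost within slide 3. Of 9 epicardial and mesothelial markers measured 2 rose and 3 fell (22.2% and 33.3%, against 17.1% and 21.8% of all genes), too few to set apart from those shares.

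Endothelial markers leaned upward: 8 of 19 rose and 1 fell (42.1% and 5.3%), 4 and 1 with close arrays averaged, and 5 rose without month 3 sample 4. The markers' median difference from the sham mean was 0.10, 0.19, 0.16 and 0.58 in month 3 samples 1 to 4. Samples 1 to 3 lay inside the sham range of -0.10 to 0.22. Sox17, an arterial transcription factor, rose by 1.06 ± 0.26 (adjusted p = 0.00334), lost within slide 3. The 1 that fell was Aqp1, the water channel of capillaries, at 0.19, -1.14, -0.86 and 0.93 against 0.86 to 2.10, a difference of -1.81 ± 0.32 (adjusted p = 0.000178) with sample 4 at the lower edge of the shams.

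Among the 13 genes named for the largest rises, Hsd3b2 had the smallest p: this steroid dehydrogenase, which has close relatives whose RNA the probe may also bind (not tested), stood at 3.11, 4.26, 3.73 and 3.89 against 0.22, 0.61 and 1.10 as lowest, median and highest sham, a rise of 3.09 ± 0.20 or 8.51-fold (adjusted p = 4.69e-10). Its probe, at 98513725 to 98513784 on chromosome 3 (mm9), is designed on an Ensembl transcript, and 2 further Hsd3b2 probes were well above background in 0 of 14 samples, with differences of 0.79 and 0.49. For Ulk3, a kinase of autophagy and hedgehog signalling, 1 probe stood at 0.62, 0.98, 1.37 and 1.69 against -2.19 to -1.30 in sham. It rose by 2.98 ± 0.22 (adjusted p = 3.7e-09). That probe maps to chromosome 15, while the second Ulk3 probe maps to chromosome 9, was measured on all 14 arrays and read 0.03. The rise therefore belongs to the chromosome 15 probe and is not shown for Ulk3 RNA as a whole.

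Second probes of these genes were mostly dim. Of the 13 genes, 8 had more than 1 probe, and 1 of them, Rsph4a, a protein of cilia, had another probe at least 1 higher (1.83, well above background in 1 of 4 month 3 samples). For Pign, which acts in the making of membrane anchors, the named probe rose by 3.04 ± 0.27 and the other read 0.28. For Fmn2, an actin nucleator, they read 3.24 ± 0.33 and 0.42. Slc35e2, a transporter-like protein, gave 3.01 ± 0.29 and -0.30. Sfi1, of centrioles, gave 3.45 ± 0.30 and 0.38. Mcm8, of DNA repair, gave 3.12 ± 0.32 and 0.42. The second probe of Slc35e2 was well above background in 3 shams and 2 month 3 samples, and those of Pign, Fmn2, Sfi1 and Mcm8 in at most 1 of the 14 samples.

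The other 5 had 1 probe each. Syt13, a synaptotagmin, rose by a fitted 3.92 ± 0.71 (adjusted p = 0.000237), from -8.47 to -5.40 in sham to -1.78, -4.09, -3.99 and -2.68 (chromosome 2, 92795818 to 92795877, mm9). Only 3 of 10 shams were well above background. Pgbd1 (3.52 ± 0.34), Nrip3 (3.36 ± 0.65), Klhl1 (3.26 ± 0.50) and Tssk5 (3.25 ± 0.36) had 4, 2, 1 and 1 measured shams. With the other shams near background, the sizes of these 5 fitted rises are uncertain and give no order. Of these 13 genes, Syt13 and Nrip3 did not differ from month 2 in the test (adjusted p = 0.57 and 0.399), and the other 11 were 2.97 to 4.13 above it.

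Of the 7 kinds of probe, those on RefSeq mRNAs had the lowest share of such rises. Since a dim probe can enter through month 3 alone, the shares are given over the 18494 probes well above background in every sham, a filter added after the data were seen. Of 13350 such probes on RefSeq mRNAs, 2.3% were called and at least 2-fold higher at month 3. The share was 7.45% of 1840 probes on lincRNAs or genomic regions, 8.56% of 748 with no accession, 9.27% of 205 on RefSeq noncoding RNAs and 5.61% of 855 on Ensembl transcripts. Without that filter it was 4.11% for RefSeq mRNA and 18.7% for lincRNAs or genomic regions, shares that include probes dim in sham. At month 2 the filtered shares were 0.457% for RefSeq mRNA and 0.815% for lincRNAs or genomic regions. Of the 603 genes at least 2-fold higher, 65 had another used probe, and for 47 of these every other probe was called the same way and for 16 none was. Why the classes differ was not tested.

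**Figure D5:**
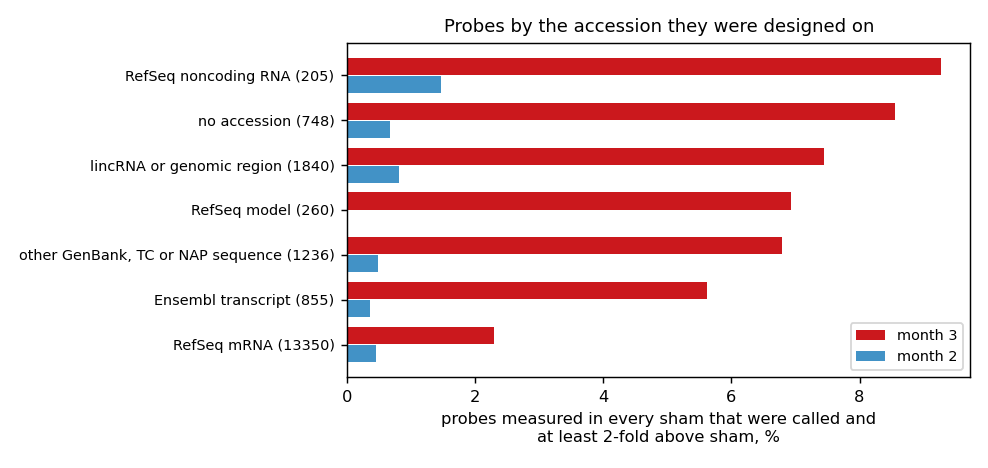
Percent of probes well above background in every sham that were called and at least 2-fold above sham, by the kind of accession the probe was designed on, at month 3 and at month 2. At month 3 the share is 2.3% for RefSeq mRNA and between 5.61% and 9.27% for the other kinds.

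Among the largest falls, G0s2, an inhibitor of fat breakdown, stood at -1.82, -1.89, -1.94 and -2.50 against -1.11 to 0.32 in sham and fell by 1.83 ± 0.19 on the log2 scale (adjusted p = 4.99e-07). Epha4, an ephrin receptor, was -3.77, -4.17, -4.26 and -4.10 against -2.96 to -1.34, a difference of -1.92 ± 0.24 (adjusted p = 4.6e-06). Both were well above background on all 14 arrays and did not overlap with sham. Ccdc69 (-1.88 ± 0.21) and the amino acid transporters Slc38a4 (-1.88 ± 0.29) and Slc38a5 (-2.67 ± 0.52) were measured in 2 of 4 month 3 samples each. Urah, of urate breakdown, differed by -2.22 ± 0.47 and its second probe by -1.37. The channels Cngb3 (-2.21 ± 0.48) and Kcna1 (-2.10 ± 0.54) were measured in 1 month 3 sample each. Lgi1, a secreted neuronal protein, was measured in none, so it is given as at least 1.84-fold lower (adjusted p = 0.000747). After normexp correction the calls for Cngb3, Kcna1, Lgi1 and Slc38a4 were lost, and those for Urah and Kcna1 were lost within slide 3.

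Month 3 also differed from month 2, which the 2 comparisons with the same shams cannot show and which was therefore tested directly. Of 12328 genes 2287 differed (18.6%), 1074 higher (8.71%) and 1213 lower (9.84%). Month 2 samples 1 to 4 lay on slide 2 and sample 5 on slide 3, while month 3 samples 2 to 4 lay on slide 3. Month and slide thus cannot be fully told apart here. With slide as a fixed block 898 genes passed, and the list counts below take no account of slide. Averaging the close arrays left 968. Leaving out month 3 sample 3 left 1365 and leaving out sample 1 gave 3658. Interferon response genes were higher than at month 2 for 21 of 38 and lower for 0, and mitochondrial ribosome genes lower for 24 of 74 and higher for 0. Calcium handling genes were lower for 7 of 22 and endothelial markers higher for 7 of 19. Fatty acid genes differed from month 2 for 5 of 41, 3 higher and 2 lower. Against month 1, 3516 genes differed (28.5%).

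Some genes were higher at month 2 than at month 3. The platelet genes Ppbp, Gp9 and Clec1b were 3.25, 3.00 and 2.54 lower at month 3 than at month 2 (adjusted p = 0.00393, 0.00743 and 0.00843), while against sham they differed by -1.63 ± 0.65, -0.78 ± 0.66 and -1.18 ± 0.57 and did not pass. Month 3 sample 1 was the highest of the 4 in each: Ppbp was -1.56 there and -4.26, -4.10 and -3.46 in samples 2 to 4. Without sample 1, Ppbp and Clec1b were lower than sham (-2.23 and -1.70, adjusted p = 0.0123 and 0.027) and Gp9 was -1.33. Besides the single-array omissions, Ppbp passed in 8 of 17 other settings and Clec1b in 4 of 16. Cfd, adipsin of fat cells, was 3.03 below month 2 (adjusted p = 0.03) and 2.52 ± 0.84 below sham (adjusted p = 0.0225), the latter not with close arrays averaged (adjusted p = 0.197). Proz, a cofactor of clotting inhibition, was 3.42 above month 2 (adjusted p = 2.62e-06) on a probe of an Ensembl transcript, and its second probe was well above background in 0 of 14 samples.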

How the data were processed

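Each sample had a deposited scanner file with 1-colour intensity values, and the processed signal used here was background-subtracted by Agilent Feature Extraction 10.7.3.1, per the file headers. A deposited table of the whole series, also intensity, served as an alternative. Probe coordinates are those of the file headers (mm9), and exon or UTR was not assigned. From the deposited intensity, log2 values were taken and each array's 75th percentile over probes well above background on all 24 arrays was subtracted. Control probes were left out. A probe was used if 1 or more of the 4 groups had it well above background throughout, and the used probe of highest mean stood for its gene. Groups came from the sample titles. 1 limma model (limma 3.58.1, R 4.3.3) of the 4 group means was fitted over 24 arrays, with Benjamini-Hochberg adjustment over all genes and a threshold of 0.05, and was tested on simulated data. Where no array of a group was well above background, the bound is a mean normalized level against the lowest signal well above background.

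Genes on chromosome Y and multicopy families were left out of the lists and names. Named genes were the 14 largest rises and 14 largest falls called both in the fit and with close arrays averaged, up to 4 members of each list by smallest p, a fixed set of heart genes, and the 6 largest rises and falls against month 2. Of the 14 largest rises, 1 is not reported here. The members and lists were chosen with earlier results of these data known. Close arrays differed by at most 0.3 over the 200 most variable genes, a limit set after the data were seen. Alternatives were 2 other scalings, normexp with an offset of 50, the deposited table, the filter on dim probes, the probe for a gene, the samples in the fit, slide, replicate number, array weights, trended and robust spread, and leaving out each array. The RefSeq mRNA probes alone, the probes measured in every sham and the fit without Sham 3, 4 and 10 were added after the data were seen. The number of arrays limits the precision. Replicate numbers were not taken as pairs: deviations of same-numbered sham and month 3 samples correlated at -0.45, 0.098, -0.026 and 0.0010. Samples of different numbers were not set beside these, so the values do not settle whether samples were paired.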

Additional observations from a re-analysis of the deposited data

Results flagged for a closer look

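For 110 named genes, the highest and lowest sample of each group was set against the rest, and a sample counts as apart where its gap to the nearest value, divided by the range of the group, exceeds the critical Dixon value for that number of samples. About 1 in 20 groups is marked by chance. There were 6 such samples among shams and 10 at month 3, with log2 levels as follows. Month 3 sample 4 was high for Ifit3 (-1.58). Sham 9 was low for Psmb8 (-2.69) and Ryr2 (1.14). Month 3 sample 4 was low for S100a8 (-5.04), S100a9 (-2.95), Dld (0.0078), Acadl (1.00), Ryr2 (0.58) and Prdx3 (1.04). Sham 10 was low for S100a9 (-7.97). Sham 2 was high for Pdha1 (2.18). Sham 2 was low for Dld (0.94). Month 3 sample 1 was high for Trdn (0.82), Gp9 (-2.72) and Clec1b (-2.97). Sham 6 was low for Pgbd1 (-7.72).

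In limma the change from sham at month 3 differed from that at month 2 for 50 named genes, given as log2 month 3 minus month 2. Immune, cell cycle and other genes were higher at month 3: Ifit1 (1.71), Zbp1 (0.89), Ifit3 (1.13), Ifitm3 (0.38), B2m (0.46), Psmb8 (0.58), Nlrc5 (1.56), Csf3r (1.30), Hdc (1.68), Tpsb2 (1.56), Itgam (2.04), Prf1 (1.47), Fbln2 (0.58), Hmmr (1.59), Dusp4 (1.44) and Cat (1.06). Larger differences were those of Pgbd1 (4.03), Sfi1 (3.76), Rsph4a (4.13), Klhl1 (3.34), Tssk5 (3.17) and Fmn2 (3.53). The same holds for Mcm8 (2.97), Hsd3b2 (3.06), Pign (3.20), Slc35e2 (3.32), the Ulk3 probe on chromosome 15 (3.32) and Proz (3.42). Lower at month 3 were Tfam (-0.80), Mrps17 (-0.48), Mrps30 (-0.27), Suclg2 (-0.99), Pdha1 (-0.68), Dld (-0.55), Slc25a20 (-1.03), Ndufab1 (-0.34), Ndufs8 (-0.54), Pln (-0.89), Hspe1 (-0.43), Adamts15 (-1.06), Ccng1 (-0.58), Prdx3 (-0.33), Epha4 (-0.87), Slc38a4 (-1.31), Ccdc69 (-1.24), G0s2 (-1.03), Ppbp (-3.25), Cfd (-3.03), Gp9 (-3.00) and Clec1b (-2.54).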

How the results depend on the processing

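Of 101 called named genes, 68 kept direction and call under every alternative run and 97 without any 1 array, and none of 1681 comparisons turned a call's direction, while 62 lost it. The causes were not tested. Genes that differed from sham, 4807 here, came to 2688 with close arrays averaged and 1598 within slide 3, which have fewer samples, and to 3489 (without month 3 sample 2) to 5362 (without sample 1) with 1 array left out. Members of the gene lists, 353 here, came to 210 and 106 in those settings and 278 to 365 with 1 array left out. Genes changed at least 2-fold, 800 here, came to 459 after normexp, 473 in the deposited table, 1941 with dim probes kept, 400 with probes measured on all arrays and 1330 with array weights, and to 663 to 1159 with 1 array left out. Against month 2, 2287 here, the counts were 1258, 1248, 968 (close arrays averaged), 898 (slide as a fixed block) and 5097 (array weights), and 1365 to 3658 with 1 array left out. Against month 1, 3516 here, they were 2233 after normexp, 2207 in the deposited table, 2233 with the slide block and 5691 with array weights, and 2413 to 4402 with 1 array left out. With the replicate block 4607 genes differed from sham, of which 3685 were among the 4807. Genes that did not pass turned sign: Acta1 was -0.22 without Sham 3, 4 and 10 and -0.060 to 0.52 with 1 array left out. Col1a1 was 0.19 with close arrays averaged, 0.14 with the slide block and 0.36 with the replicate block, and -0.41 to 0.25 with 1 array left out. Col3a1 was 0.15 with the replicate block and -0.63 to 0.013 with 1 array left out. Probes near background limit the values of dim genes.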

Other observations

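Other gene groups are set beside all genes, of which 17.1% rose and 21.8% fell. Of 56 protein breakdown genes 9 rose and 9 fell (16.1% each), of 38 hypoxia and angiogenesis genes 6 rose and 4 fell, of 21 Wnt pathway genes 4 rose and 5 fell (1 and 1 with close arrays averaged), and of 24 immediate early genes 4 rose and 2 fell. Of 16 circadian clock genes 2 rose and 1 fell, and of 14 creatine and phosphate transfer genes 2 rose and 1 fell. Of 31 sarcomere and Z-disc genes 6 rose and 1 fell, and none passed with close arrays averaged.

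Of 14 fibroblast markers 2 rose and 2 fell, and of 12 smooth muscle and pericyte markers 3 rose and 0 fell. Of 12 atrial markers 0 rose and 4 fell, with 1 lower once close arrays were averaged. Of 7 platelet markers 0 passed against sham, and 3 were lower than at month 2. Few markers of other types were measured: 6 of T and NK cells with 2 higher, 3 of B and plasma cells with 2 higher and 1 lower, 7 of adipocytes with 1 higher and 2 lower, and 8 of Schwann cells and neurons with 3 higher and 3 lower. Of 3 erythroid, 4 skeletal muscle and 2 thymus markers 1 of each was lower.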
